A study of Mus musculus with 5 samples.

Results

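Hormone-sensing luminal cells are the mammary epithelial cells that carry the receptors for estrogen, progesterone and prolactin. They line the ducts beside luminal progenitor cells, which hold few of these receptors, and they answer systemic hormones by releasing paracrine factors such as amphiregulin, WNT4 and RANKL that act on their neighbours. FOXA1 is a transcription factor that works with the estrogen receptor in these cells, and the prolactin receptor signals through JAK2 and STAT5.

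The cells described here were chosen by their RNA in single-cell profiles of mouse mammary gland. A cell was taken when at least 3 of the 6 genes Prlr, Esr1, Pgr, Ptn, Cited1 and Areg had a unique molecular identifier (UMI, 1 counted RNA molecule), when Krt8 and Krt18 together had at least 3 UMIs, and when fewer than 2 of the 4 luminal progenitor genes Kit, Elf5, Aldh1a3 and Plet1 were detected. It also had under 5 UMIs of the basal keratins Krt5 and Krt14, no UMI of the leukocyte gene Ptprc, and under 50 collagen UMIs per 10000. Of 32472 barcodes, 28588 held 500 or more detected genes with no more than 15% of their UMIs from mitochondrial genes, and 2944 of those met the rule. The gate uses measured RNA, so the levels of its genes are given below as a description, with no test.

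Mammary glands of mice were profiled with the 10x Genomics 3′ kit in 5 libraries, and the labels do not say whether a library is 1 mouse or a pool. The 3 libraries labelled Frmd3 KO (KO1, KO2 and KO3) and the 2 labelled WT (WT1 and WT2) are called by genotype and replicate number. The labels give neither the strain, the age or the stage of the mice, nor the part of Frmd3 that was removed, and they do not say that the KO was limited to a cell type. The series title names Notch signalling and the fate of mammary epithelial cells as its question.

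KO1 gave 220 gated hormone-sensing luminal cells, KO2 gave 1331, KO3 gave 93, WT1 gave 526 and WT2 gave 774. Their summed depth ranged from 2278671 UMIs in KO3 to 21126474 UMIs in KO2, and the median cell held between 14917 UMIs in KO2 and 20953 UMIs in KO3. No barcode of a gated cell was shared by any pair of libraries. A score against simulated doublets marked 4 of these cells in KO1, 57 in KO2, 0 in KO3, 9 in WT1 and 10 in WT2. The main analysis kept them.

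The libraries did not fall apart by genotype in these cells. Over 5312 genes, the root mean square difference in log2 CPM (CPM are UMI counts scaled to the same total in every library) was 0.257 between KO1 and WT1 and 0.261 between KO2 and WT2. Every other pair of libraries differed by 0.556 to 0.678, pairs of the same genotype included. KO1 and WT1 differed over 4-fold in 2 of these genes and KO2 and WT2 in 5, against 46 to 79 genes for the other pairs. Each comparison of KO with WT below rests on these 5 unlike libraries, and nothing in the labels says what KO1 shares with WT1 or KO2 with WT2.

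Frmd3, which encodes a FERM-domain protein, was counted at 1, 0 and 1 UMI in the KO1, KO2 and KO3 cells, against 0 and 7 UMIs in the WT1 and WT2 cells. A count of 0 allows up to 0.142 CPM in KO2 and up to 0.285 CPM in WT1 (3 UMIs, counting error only). WT2 had 0.456 CPM. The gene lies at chr4:74013442-74202214 on mm10 (plus strand, GENCODE release 21). At this depth its RNA could not be told apart between genotypes in these cells, and a 3′ tag need not lie in the removed part, so the count does not check the labels.

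The gate kept very different numbers of cells at each step. Cells with at least 3 markers numbered 2150, 2061 and 235 in KO1, KO2 and KO3, against 928 and 1591 in WT1 and WT2. The collagen limit, the last step, took KO1 to 220 cells out of 786, while it left 1331 of 1470 in KO2, 93 of 95 in KO3, 526 of 548 in WT1 and 774 of 912 in WT2. Just inside the threshold, 233 gated cells had exactly 3 of the 6 markers, and just outside it 125 cells that met every other condition had 2. The median depth of the inside cells was between 3142 UMIs in WT1 and 17311.5 UMIs in KO3, where there were 2 such cells. Of the outside cells it was between 1660 UMIs in KO3 and 4702 UMIs in WT2. At the other end, 1258 cells had all 6 markers, with median depths of 18283 to 27433.5 UMIs per library.

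The receptor for prolactin was found in nearly every gated cell, while the steroid receptors were found in fewer. To compare shares at 1 depth, cells were thinned to 3000 UMIs. Prlr then had a UMI in 98.6%, 96.6% and 98.9% of KO1, KO2 and KO3 cells, against 97.8% and 94.3% of WT1 and WT2 cells. Before thinning the shares were 99.5%, 98.5% and 98.9%, against 98.7% and 98.7%. In leukocytes, which should lack the gene, 1.60% to 7.05% of thinned cells had a Prlr UMI. The Prlr level was 2900, 1659 and 3089 CPM in the KO libraries, against 2916 and 1552 CPM in the WT libraries. KO2 and WT2 were thus the low libraries, and the genotypes overlapped.

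Pgr, the progesterone receptor, had the same low pair. It was found in 51.2%, 31.1% and 50.6% of thinned KO1, KO2 and KO3 cells, against 51.1% and 22.5% of WT1 and WT2 cells, and in 0 to 1.92% of leukocytes. Before thinning it was found in 85.9%, 69.3% and 88.2%, against 85.6% and 66.0%. Its level was 276, 127 and 230 CPM in the KO libraries, against 275 and 90.8 CPM in the WT libraries.

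Esr1, the estrogen receptor, varied little among libraries. It was found in 25.1%, 34.3% and 37.1% of thinned KO cells, against 26.8% and 29.9% of thinned WT cells, and unthinned in 66.8%, 78.4% and 86.0%, against 76.0% and 82.3%. In leukocytes the thinned share was 0 to 2.75%. The level ran from 105 CPM in KO1 to 150 CPM in KO3, with both WT libraries between.

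Cited1, a transcriptional coregulator that binds the estrogen receptor, ran the other way from Pgr. It was found in 24.6%, 54.4% and 51.7% of thinned KO1, KO2 and KO3 cells, against 27.0% and 68.9% of WT1 and WT2 cells, and in 0 to 1.72% of leukocytes. Unthinned, the shares were 47.7%, 74.0% and 82.8%, against 61.0% and 86.4%. Its level was 157, 726 and 627 CPM in the KO libraries, against 217 and 967 CPM in the WT libraries. KO1 and WT1 were low in Cited1, and KO3 stood with KO2 and WT2 for this gene but with KO1 and WT1 for Pgr.

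Areg, which encodes the EGF receptor ligand amphiregulin, was found in 77.8%, 69.7% and 88.8% of thinned KO cells, against 85.3% and 79.8% of thinned WT cells. Its share in leukocytes was 6.41% to 11.8%. Before thinning it was found in 94.1%, 87.5% and 95.7% of KO cells, against 93.2% and 91.5% of WT cells. Ptn, which encodes the secreted growth factor pleiotrophin, was found in 91.3% to 99.4% of thinned gated cells and in 3.04% to 8.87% of leukocytes. Its range over unthinned gated cells was 96.8% to 100%. Median leukocyte depth before thinning was 4922.5 to 5417 UMIs per library.

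The rule against progenitor genes left 1 of the 4 in most cells. Plet1 was detected in 75.0%, 83.6% and 63.4% of unthinned KO cells, against 81.4% and 85.9% of unthinned WT cells, and in 27.0% to 50.2% of the gated cells after thinning. In leukocytes 0.784% to 6.12% of thinned cells had it. Its level in gated hormone-sensing luminal cells was 131 to 315 CPM, against 3556 to 7126 CPM in gated luminal progenitor cells. Kit, Elf5 and Aldh1a3 were each at 2.41 CPM or less in the gated cells of every library.

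**Figure D1:**
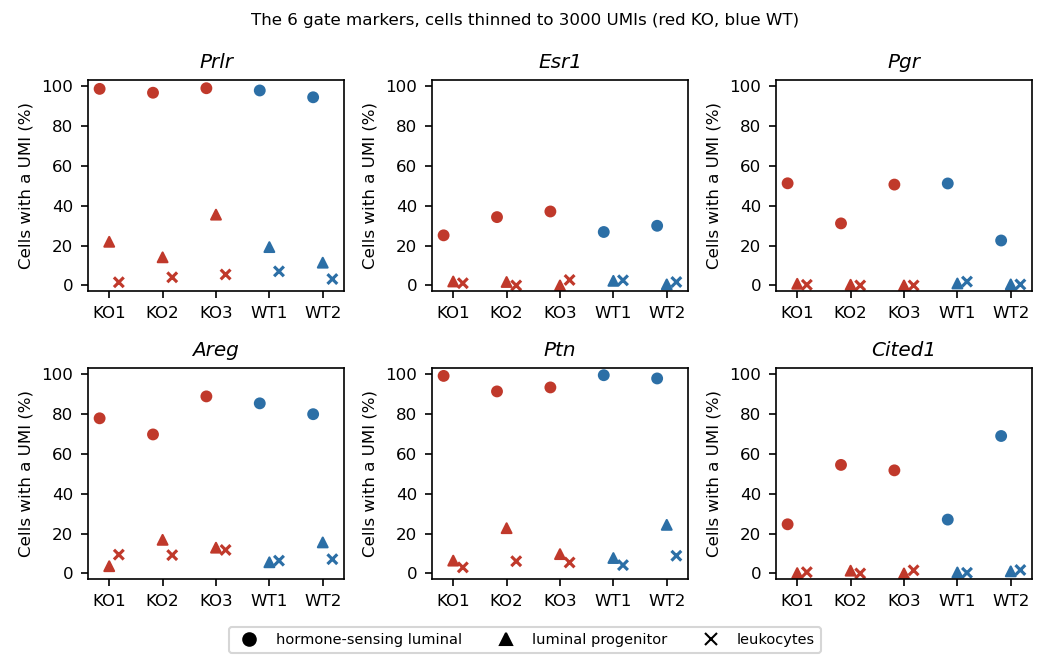
Share of cells with at least 1 UMI of each of the 6 gate markers in each library, after thinning to 3000 UMIs, for gated hormone-sensing luminal cells (circles), gated luminal progenitor cells (triangles) and leukocytes (crosses); red is KO and blue is WT. Pgr is lowest in KO2 and WT2 (31.1% and 22.5%) and Cited1 is lowest in KO1 and WT1 (24.6% and 27.0%).

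The label was also checked in genes that the gate did not use. Foxa1 was found in 21.3%, 29.7% and 39.3% of thinned KO cells, against 26.4% and 27.9% of thinned WT cells, with 0 to 2.04% in leukocytes. Wnt4 was found in 43.0%, 55.3% and 66.3% of KO cells, against 46.6% and 44.1% of WT cells, with 0 to 1.60% in leukocytes. Stc2, which encodes a secreted glycoprotein induced by estrogen, was found in 31.4%, 34.1% and 41.6% of KO cells, against 33.5% and 37.9% of WT cells. All 3 genes were found in every library at shares above the leukocyte level. Not every gene outside the gate did so. Batf was lower in every library, at 2.42% to 10.1% of thinned gated cells, against 8.37% to 16.3% of leukocytes. Gata3 was close to the leukocyte share in WT2, at 18.7% against 18.5%, and above it in the other libraries. Unthinned shares were higher, between 56.4% and 88.2% for Foxa1, between 81.2% and 87.5% for Wnt4 and between 57.7% and 74.7% for Stc2.

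Tnfsf11, which encodes RANKL, the progesterone-induced ligand that drives neighbouring cells to divide, was all but undetected. It had 0, 0 and 0 UMIs in the KO cells, against 1 and 0 UMIs in the WT cells, out of 2944 cells in all. Leukocytes of the same libraries held 25, 23, 8, 11 and 22 Tnfsf11 UMIs. Calca, a peptide hormone gene often used beside it as a marker, had 3, 10 and 0 UMIs in KO cells, against 2 and 15 in WT cells. Both were below the level at which genotypes could be compared.

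The promoter of Prlr is shown because this gate marker was found in nearly every gated cell. That of Fgb, a fibrinogen chain, is shown because the gene is among the most raised below. Tph1 and Upk3a are shown for their change between libraries. Each line gives the 250 bases before a start site from RefSeq (GRCm38.p6), 5′ to 3′ on the gene's strand. Capitals mark TGTTTAC, a FOXA motif, and TTCNNNGAA, a STAT5 motif, on either strand. AGATAAG, a motif of the GATA factors, and the full palindromic consensus of the estrogen response element were searched as well and had no match in these windows. The Prlr window is the second of 3 listed (chr15:10223656-10223905, plus strand) and is shown because it is the 1 with a match, the Fgb window is chr3:83049864-83050113 (minus strand), the Tph1 window is the first of 2 (chr7:46672538-46672787, minus strand) and the Upk3a window is chr15:85016891-85017140 (plus strand).
Prlr: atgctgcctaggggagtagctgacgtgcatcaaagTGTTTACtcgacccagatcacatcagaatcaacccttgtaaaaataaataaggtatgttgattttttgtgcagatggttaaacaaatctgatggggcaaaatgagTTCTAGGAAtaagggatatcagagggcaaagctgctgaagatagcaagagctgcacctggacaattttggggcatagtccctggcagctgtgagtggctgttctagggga
Fgb: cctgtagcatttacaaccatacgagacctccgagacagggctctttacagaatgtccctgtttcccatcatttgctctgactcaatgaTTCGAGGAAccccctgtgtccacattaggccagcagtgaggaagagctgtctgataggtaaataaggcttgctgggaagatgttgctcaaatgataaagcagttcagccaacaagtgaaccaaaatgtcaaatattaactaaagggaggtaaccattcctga
Tph1: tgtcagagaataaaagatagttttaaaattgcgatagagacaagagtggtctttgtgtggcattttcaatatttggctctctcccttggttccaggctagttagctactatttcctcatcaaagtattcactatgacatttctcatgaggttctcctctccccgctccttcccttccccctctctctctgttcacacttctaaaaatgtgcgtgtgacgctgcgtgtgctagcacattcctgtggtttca
Upk3a: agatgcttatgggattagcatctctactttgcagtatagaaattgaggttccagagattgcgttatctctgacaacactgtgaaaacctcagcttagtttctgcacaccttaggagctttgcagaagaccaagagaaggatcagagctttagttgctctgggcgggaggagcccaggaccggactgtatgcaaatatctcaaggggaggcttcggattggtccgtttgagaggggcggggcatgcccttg

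The Prlr window holds 1 FOXA and 1 STAT5 match, the Fgb window holds 1 STAT5 match, and the other windows hold none. The first and the third Prlr windows and the second Tph1 window, not printed, hold none either. Over the first listed promoter of 27025 genes, the FOXA letters occur in 3.09%, the STAT5 letters in 7.18%, the GATA letters in 2.78% and the estrogen element in 0.0629%. Among the 2629 matched genes called higher in gated hormone-sensing luminal cells than in progenitors, 2.51% hold the FOXA letters and 5.93% the STAT5 letters. The same shares over 9496 matched genes tested were 2.19% and 5.89%, so genes higher in these cells carried the letters about as often as all genes tested.

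Gated hormone-sensing luminal cells were compared with gated luminal progenitor cells of the same libraries. The progenitor gate asked for at least 2 of Kit, Elf5, Aldh1a3 and Plet1 and for fewer than 3 of the 6 hormone-sensing markers, and it held 661, 313 and 36 cells in KO1, KO2 and KO3, and 667 and 203 in WT1 and WT2. The cells were summed per library and compared with the library as a block, over 5 pairs. Gate genes were left out of every count. The other genes did not choose the cells, but they were read in the same cells that the gate parted, so what follows describes the gated classes and is no test that the classes exist.

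The 2 classes differed in a large part of the transcriptome. With edgeR's quasi-likelihood test and Benjamini-Hochberg adjustment, 6506 of 12258 genes passed an adjusted p of 0.05, which is 53.1%. Of all genes tested, 27% were higher and 26.1% were lower in gated hormone-sensing luminal cells, and the median log2 difference was -0.01. Those shares are the background for the count of each list below. Log2 differences below are hormone-sensing luminal minus luminal progenitor, with the standard error from the fit.

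The list of hormone-sensing identity genes, with the gate's own genes left out, was nearly all on 1 side. Of 18 measured genes, 16 were higher, 0 were lower and 2 did not pass, and the median log2 difference was 4.98 against -0.01 for all genes tested. Wnt4, the paracrine WNT ligand of the progesterone response, had 292, 282, 365, 272 and 231 CPM in the hormone-sensing cells of KO1, KO2, KO3, WT1 and WT2, against 5.63, 6.59, 6.32, 8.31 and 8.83 CPM in the progenitors. The 2 classes were far apart in every library, with a log2 difference of 5.25 ± 0.16 (SE) and an edgeR adjusted p of 5.68e-09. Foxa1 had 82.2, 133, 165, 110 and 122 CPM, against 9.28, 19.2, 19.0, 13.3 and 22.4 CPM, a log2 difference of 2.88 ± 0.13.

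Stc2 was 6.45 ± 0.18 higher on the log2 scale and Prom1, a membrane glycoprotein of protruding membranes, 5.04 ± 0.41. Ly6a, which encodes the surface antigen Sca-1, was 4.93 ± 0.29 higher. The T-box factor Tbx3, needed for mammary placode formation, was 2.07 ± 0.17 higher. Gata3, the zinc-finger factor of the whole luminal lineage, did not pass: it had 123, 112, 192, 137 and 77.2 CPM in hormone-sensing cells, against 116, 88.6, 171, 95.2 and 80.5 CPM in progenitors. Dcxr, a carbonyl reductase, was the other gene that did not pass.

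The prolactin pathway was higher at the receptor's kinase and at 1 of the STAT5 genes. Of 11 measured genes, 4 were higher, 3 were lower and 4 did not pass. Jak2, the kinase bound to the prolactin receptor, had 174, 82.2, 69.6, 116 and 62.4 CPM in hormone-sensing cells of KO1, KO2, KO3, WT1 and WT2, against 18.3, 32.4, 19.0, 23.3 and 25.5 CPM in progenitors, a log2 difference of 2.05 ± 0.32. Stat5a, which carries the signal to the nucleus, was 1.72 ± 0.14 higher. Stat5b was -0.13 ± 0.13 and did not pass. Of the feedback inhibitors, Socs3 was higher by 1.96 ± 0.23, while Cish, Socs1 and Socs2 did not pass. Tnfrsf11a, the receptor for RANKL, was lower, at -3.17 ± 0.48.

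Of 15 measured genes of the estrogen response, 6 were higher and 3 lower, a share called near that of all genes (53.1%), and the median log2 difference was 0.40. Greb1, a coactivator induced by the estrogen receptor, was 4.60 ± 0.38 higher but rested on 2 libraries: it had 20.1, 0.568 and 0.799 CPM in KO1, KO2 and KO3 cells and 24.1 and 0 CPM in WT1 and WT2 cells. Myb, a transcription factor gene induced by estrogen, was 3.95 ± 0.26 higher and Rab31, a small GTPase, 3.31 ± 0.22 higher. Tfap2c, an AP-2 factor, was lower by 4.14 on the log2 scale, and Ccnd1, which encodes cyclin D1, fell by 0.75. Of 16 steroid receptors and cofactors, 3 were higher and 3 lower. The 3 lower genes were the coactivator Ncoa1 (-1.39 ± 0.12), the vitamin D receptor Vdr (-2.09 ± 0.13) and the glucocorticoid receptor Nr3c1 (-2.14 ± 0.17).

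Both ligands and receptors of the EGF family were found in either direction. Of 14 measured genes besides Areg, 7 were higher and 5 lower, where 27% and 26.1% of all genes were. Of the 14, 10 passed the count filter in the fit on hormone-sensing cells alone. The others were measured only through their level in progenitors, so their direction was set in advance. Among ligands, Epgn (epigen) was 3.36 ± 0.30 higher and Nrg4 4.71 ± 0.59 higher, while Hbegf was lower, at -2.25 ± 0.18. Egfr, the receptor for amphiregulin, had 2.92, 2.08, 1.60, 4.05 and 2.76 CPM in hormone-sensing cells, against 38.5, 50.8, 28.4, 34.0 and 50.2 CPM in progenitors, and was lower in all 5 libraries (-3.94 ± 0.23). Erbb4 was lower by 7.41 ± 0.39 on the log2 scale and Erbb3 was higher by 1.08 ± 0.12. Adam17, the sheddase that frees amphiregulin, was 0.52 ± 0.12 higher, and the related protease Adam10 was 2.66 ± 0.12 higher.

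Of 20 measured genes of the core Notch pathway, 6 were higher, 3 were lower and 11 did not pass. A smaller share of the list was called than of all genes, at 53.1%. The ligand gene Jag1 had 20.99, 27.0, 34.0, 21.02 and 21.5 CPM in hormone-sensing cells, against 2.28, 3.02, 9.48, 1.60 and 6.79 CPM in progenitors, with a log2 difference of 2.82 ± 0.29. Lfng, a fringe enzyme that modifies Notch receptors, was 3.23 ± 0.37 higher. The receptors Notch1 (-1.31 ± 0.24) and Notch2 (-1.01 ± 0.19) and the coactivator Maml2 (-2.59 ± 0.23) were lower. Notch3 was 0.07 ± 0.10 and did not pass.

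Of 12 measured Notch target genes, 3 were higher and 7 lower, with a median log2 difference of -0.84. In the fit on hormone-sensing cells alone, 9 of the 12 passed the count filter. The others were measured only through their level in progenitors, so their direction was set in advance. Both the count of lower genes and the median include them. Hes1, a repressor that many Notch signals switch on, had 528, 828, 191, 484 and 864 CPM in hormone-sensing cells, against 284, 291, 123, 227 and 419 CPM in progenitors, and was 1.06 ± 0.13 higher. Hey1, of the related Hey group, was lower, with a log2 difference of -5.01 ± 0.78: it was at 0 to 0.993 CPM in the 5 hormone-sensing sums and at 7.41 to 44.2 CPM in progenitors. Nrarp, a feedback inhibitor of Notch, was lower, at -2.87 ± 0.20.

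Of 23 WNT genes, 5 were higher and 12 lower. Only 19 of the 23 passed the count filter in hormone-sensing cells alone. The others entered through their level in progenitors, so their direction was set in advance. Among ligand genes, Wnt5a was 6.08 ± 0.24 higher, with 61.5, 65.5, 65.6, 55.4 and 56.8 CPM in hormone-sensing cells, against 0.457 to 3.16 CPM in progenitors. Wnt5b was lower, at -7.64 ± 0.18, with 0.292 to 0.520 CPM in hormone-sensing cells, against 63.2 to 120 CPM in progenitors. The R-spondin receptor gene Lgr6 was lower by 8.01 ± 0.33 on the log2 scale. Of 16 genes of the YAP and TEAD pathway, 2 were higher and 11 lower, and 15 of the 16 passed that filter. Among the lower genes were Ankrd1 (-7.52 ± 0.32), Ccn2 (-6.52 ± 0.71) and Ccn1 (-2.13 ± 0.13), all known targets of YAP in other cells.

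All 18 measured luminal progenitor genes outside the gate and all 10 measured milk genes were lower, with medians of -6.76 and -5.65. In the fit on hormone-sensing cells alone, 12 of the progenitor genes and 7 of the milk genes passed the count filter. The others were measured only through their level in progenitors, so their direction was set in advance. Lcn2, an iron-siderophore binding protein, had 7.0, 9.88, 13.6, 16.4 and 6.35 CPM in hormone-sensing cells, against 5183, 5001, 3995, 4474 and 3749 CPM in progenitors. Of 21 luminal transcription factor genes, 18 passed the same filter in hormone-sensing cells alone, and the others had their direction set in advance. Of the 21, 6 were higher and 11 lower. Among the lower ones Sox10, best known from the neural crest, had 0.189 to 0.449 CPM in 4 libraries and 0 in KO3, against 25.5 to 50.6 CPM. The summed level of 19 such progenitor genes was 138 to 240 CPM in the gated hormone-sensing cells of each library.

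Keratins and transporters differed in both directions. Of 7 measured keratins outside the gate, 4 were higher and 2 lower, with a median log2 difference of 2.03. Of 18 ion and water transport genes, 6 were higher and 7 lower, with a median of -0.22. Of all genes tested, 27% were higher and 26.1% lower. Krt6a was 6.40 ± 0.34 higher, with 372, 389, 159, 654 and 401 CPM against 1.83 to 9.06 CPM, and Krt7 (2.24 ± 0.26) and Krt19 (2.03 ± 0.11) were higher. Slc12a2, the sodium, potassium and chloride cotransporter NKCC1, had 3755, 3075, 2444, 3723 and 2135 CPM, against 137 to 168 CPM in progenitors, and was 4.35 ± 0.17 higher. The sodium pump modulator Fxyd2 (5.70 ± 0.30) and the water channel Aqp5 (2.24 ± 0.33) were higher, and the potassium channel Kcnn4 (-7.10 ± 0.31) was lower. Among 25 junction genes, 6 were higher and 11 lower. Cldn10 was higher, at 4.98 ± 0.22, and Cldn1 was lower, at -8.58 ± 0.23. In hormone-sensing cells alone, 6 of the keratins, 17 of the transport genes and 24 of the junction genes passed the count filter. The direction of the others was set in advance.

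Respiratory chain genes moved 1 way by small steps: 21 of 23 were higher, 0 were lower, and the median log2 difference was 0.68. Of 20 glycolysis and hypoxia genes, 12 were higher and 3 lower, with Hk2, a hexokinase, 3.15 ± 0.16 higher and the glucose transporter gene Slc2a1 lower, at -1.65 ± 0.29. Hif1a, the oxygen-regulated transcription factor, was 2.67 ± 0.30 higher. The 2 gates differ in depth, with a median of 7428.5 to 14233 UMIs in progenitors, and its part in these counts was not tested. Of 27 cell cycle genes, 6 were higher, 1 lower and 20 did not pass.

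**Figure D2:**
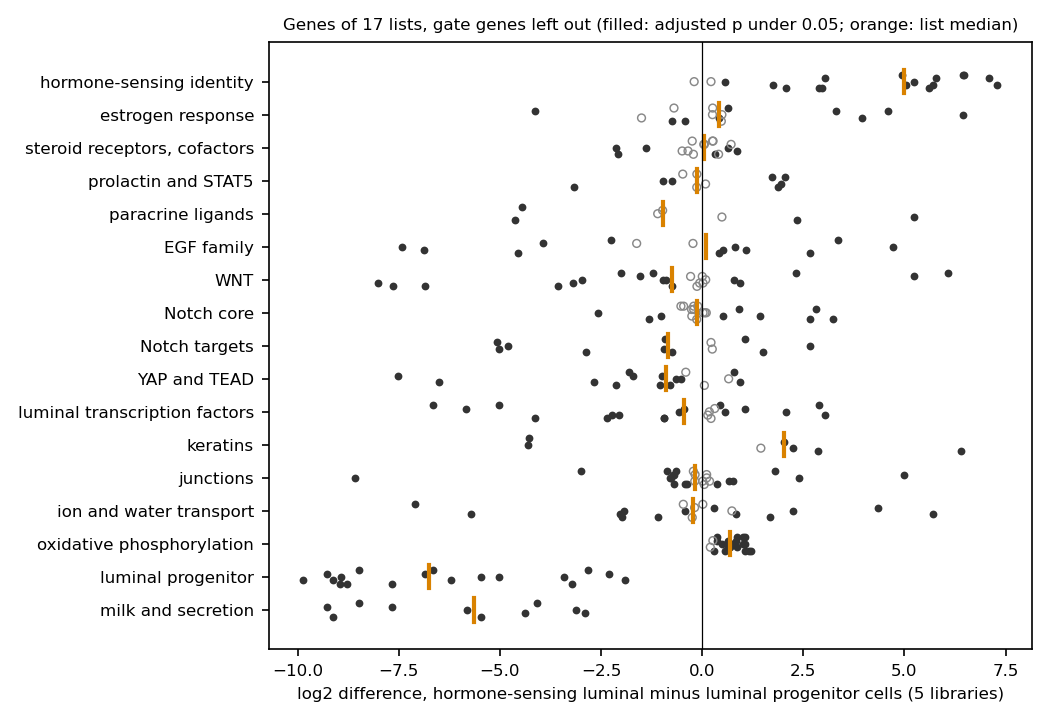
Log2 difference of gated hormone-sensing luminal minus gated luminal progenitor cells for each measured gene of 17 lists, over 5 libraries; filled points passed an adjusted p of 0.05, open points did not, and the orange bar is the list's median. The identity list has its median at 4.98 and the progenitor and milk lists have theirs at -6.76 and -5.65, while most pathway lists straddle 0.

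The 12 largest changes per direction at 50 CPM or more, list members included, were taken from genes that changed the same way in every library. R3hdml, at chr2:163492318-163502612, led the higher ones, with a log2 difference of 8.04 ± 0.32. It had 82.8, 97.5, 83.1, 146 and 61.1 CPM in hormone-sensing cells, against 0, 0.274, 0, 1.02 and 0 CPM in progenitors. Its UMIs in progenitors numbered 0, 1, 0, 7 and 0, so the size of its fold is not well fixed. Nrxn3, a synaptic adhesion protein, Cxcl15, a chemokine, and Tspan1, a tetraspanin, were 7.97 ± 0.38, 7.64 ± 0.31 and 7.28 ± 0.27 higher.

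Several of these genes are best known from neurons or liver. Kif5c, a kinesin motor of neurons, was 7.23 ± 0.29 higher and Syn2, a synaptic vesicle protein, 7.13 ± 0.27 higher. Hp, which encodes the plasma protein haptoglobin, had 231, 92.3, 97.5, 220 and 75.8 CPM in hormone-sensing cells, against 1.98, 0.549, 0, 2.19 and 0.340 CPM in progenitors, and was 6.89 ± 0.18 higher. Fgb, whose promoter is printed above, was 7.08 ± 0.28 higher, and its partner chain Fgg 6.48 ± 0.25 higher. Gipc2, a PDZ-domain protein, had the most even level of the 12, at 279 to 445 CPM in hormone-sensing cells, against 2.19 to 6.32 CPM in progenitors.

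The 12 lower genes were Ltf, Muc15, Csn3, Btn1a1, Atp6v1b1, Wfdc18, Lcn2, Slc5a1, Slc5a7, Snorc, Cldn1 and Ntng1, with log2 differences from -9.86 to -8.40. Ltf, which encodes the milk protein lactoferrin, was the lowest, with 2.04, 3.17, 0.400, 6.02 and 1.48 CPM in hormone-sensing cells, against 1896, 2506, 2209, 2848 and 2811 CPM in progenitors. Muc15 had 0, 5, 2, 5 and 1 UMIs and Slc5a1, a glucose cotransporter, 0, 5, 0, 1 and 1 UMIs in hormone-sensing cells, so their folds are not well fixed.

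The share of these cells differed more among KO libraries than between genotypes. Gated hormone-sensing luminal cells made up 2.12%, 28.6% and 4.08% of kept cells in KO1, KO2 and KO3, against 10.4% and 12.4% in WT1 and WT2. The mean was 11.6% ± 14.8 in KO and 11.4% ± 1.43 in WT (SD, n = 3 and 2), a difference of 0.205 percentage points with an exact permutation p of 1 (two-sided; 10 splits, smallest p 0.1). Without KO2 the difference was -8.30 points, and without WT1 it was -0.807. Among gated luminal cells the shares were 24.97%, 81.0% and 72.1% in KO1, KO2 and KO3, against 44.1% and 79.2% in WT1 and WT2, a difference of -2.31 points (exact permutation p = 1). Without KO1 it was 14.9 points and without WT2 15.3 points. The direction of both depends on single libraries. The low KO1 share also depends on the collagen limit, which took KO1 from 786 cells to 220, and no other collagen limit was run.

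**Figure D3:**
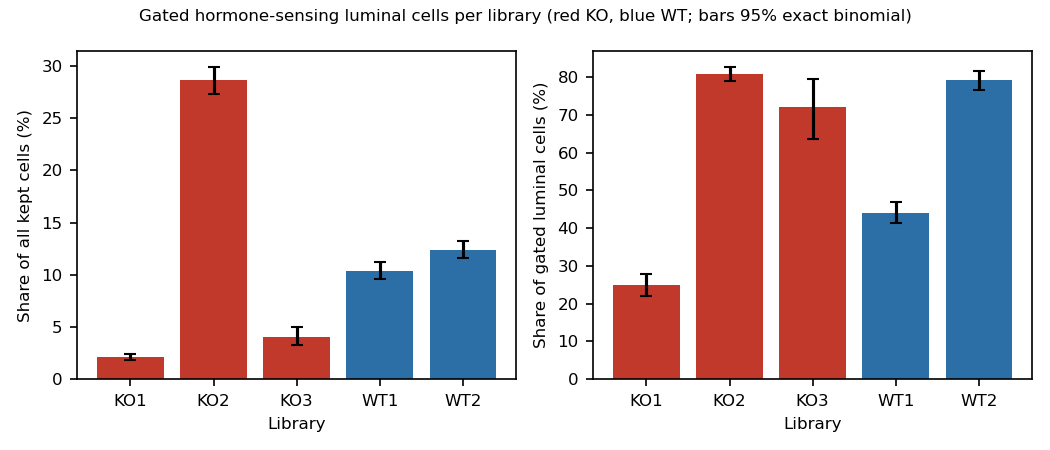
Gated hormone-sensing luminal cells as a percentage of all kept cells (left) and of gated luminal cells (right) in each library, KO in red and WT in blue, with exact binomial 95% intervals that cover counting error only. KO1 and KO2 are the lowest and the highest of the 5 in both panels, at 2.12% and 28.6% of kept cells. The collagen limit removed most KO1 cells that had passed every earlier step of the gate.

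No gene passed edgeR's test of KO against WT within gated hormone-sensing luminal cells when the replicate number was not a term in the fit. By that test 0 of 12352 genes passed an adjusted p of 0.05 (0%), and 115 had an unadjusted p under 0.05. DESeq2 called 2 genes (0.0162%), H2-Ab1 and 2210407C18Rik; the second is named only because of that call, and it had 0 UMIs in each KO library, against 26 and 163 in WT1 and WT2. On simulated counts with the fitted spread, drawn independently for each library, the edgeR test recovered 64.5% of 4-fold and 7.48% of 2-fold changes. Changes of 2-fold were thus mostly missed there. The simulation left out the likeness of KO1 to WT1 and of KO2 to WT2. Its recovery therefore does not measure how many changes the test would find in these libraries. In 1428 genes (11.6%) the KO and WT libraries did not overlap, 5.28% with KO higher and 6.28% with KO lower.

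The 5 genes named as higher, none of which passed edgeR's test without a replicate term, were led by Arhgef26, a guanine exchange factor for RhoG. It had 19.5, 23.99 and 26.6 CPM in KO1, KO2 and KO3, against 13.4 and 12.9 CPM in WT1 and WT2, with no overlap (log2 difference of KO minus WT 0.83 ± 0.23, SE). Ly6k, a GPI-anchored protein, had 55.7, 39.5 and 23.3 CPM in KO, against 17.5 and 10.0 CPM in WT (1.53 ± 0.43). The gap junction gene Gja1, which encodes connexin 43, had 15.3, 23.8 and 25.4 CPM in KO, against 13.7 and 9.48 CPM in WT (0.90 ± 0.31). Dnaic1, a dynein of cilia, and Hmgn3, a nucleosome-binding protein, were at 0.73 ± 0.24 and 0.61 ± 0.22. The edgeR adjusted p was 0.99996 for each.

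Among the 5 genes named as lower were 3 of MHC class II, the molecules that present antigen to helper T cells. H2-Ab1 had 8.26, 2.46 and 2.08 CPM in KO1, KO2 and KO3, against 33.1 and 23.8 CPM in WT1 and WT2 (log2 difference -2.80 ± 0.57; DESeq2 adjusted p 0.0352, edgeR adjusted p 0.99996). H2-Aa had 9.14, 2.41 and 2.08 CPM in KO, against 37.2 and 17.9 CPM in WT (-2.67 ± 0.67), and H2-Eb1 was at -2.61 ± 0.71. The KO and WT libraries did not overlap in any of the 3, with KO the lower group. With the cells scored as doublets left out, the log2 differences were -1.85 for H2-Ab1, -1.94 for H2-Aa and -1.70 for H2-Eb1. Without KO1 they were -3.60, -3.57 and -3.61, and without WT1 they were -2.03 for H2-Aa and -1.98 for H2-Eb1. H2-Ab1 had a UMI in 2.42%, 1.02% and 0% of thinned KO cells, against 7.98% and 3.29% of thinned WT cells, and in 20.4% to 55.4% of leukocytes. The same thinned share in luminal progenitors was 3.62%, 0.687% and 0% in KO, against 9.36% and 2.07% in WT.

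Markers of leukocytes moved with these genes. All 10 measured leukocyte markers had lower fitted values in KO, 8 of them with no overlap, where 6.28% of all genes did so, and their median log2 difference was -1.58 against -0.01 for all genes tested. The summed level of the list's 16 genes was 34.4, 23.95 and 12.7 CPM in KO cells, against 74.2 and 52.8 CPM in WT cells, and none of its genes was at 0 UMIs over all gated cells. In leukocytes of the same libraries the sum was 9022 to 12614 CPM. The monocyte gene Lyz2 had 9.14, 1.84 and 2.91 CPM in KO gated cells, against 32.7 and 15.7 CPM in WT gated cells. Of 14 fibroblast markers, 13 had lower fitted values in KO, 7 with no overlap, with a median of -0.96. Their summed level was 200.2, 405 and 67.1 CPM in KO cells, against 298 and 325 CPM in WT cells, so the sums overlapped. The part of RNA from either cell type in the MHC class II values was not tested.

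The other named lower genes were Atf5 and Apoe. Atf5, a stress-responsive transcription factor, had 18.9, 17.6 and 20.4 CPM in KO, against 44.9 and 32.2 CPM in WT (-1.03 ± 0.22). Apoe, a lipid carrier protein that macrophages make in quantity, had 33.6, 16.5 and 27.9 CPM in KO, against 54.3 and 64.6 CPM in WT (-1.22 ± 0.31). Neither passed edgeR's test without a replicate term (adjusted p 0.99996).

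**Figure D4:**
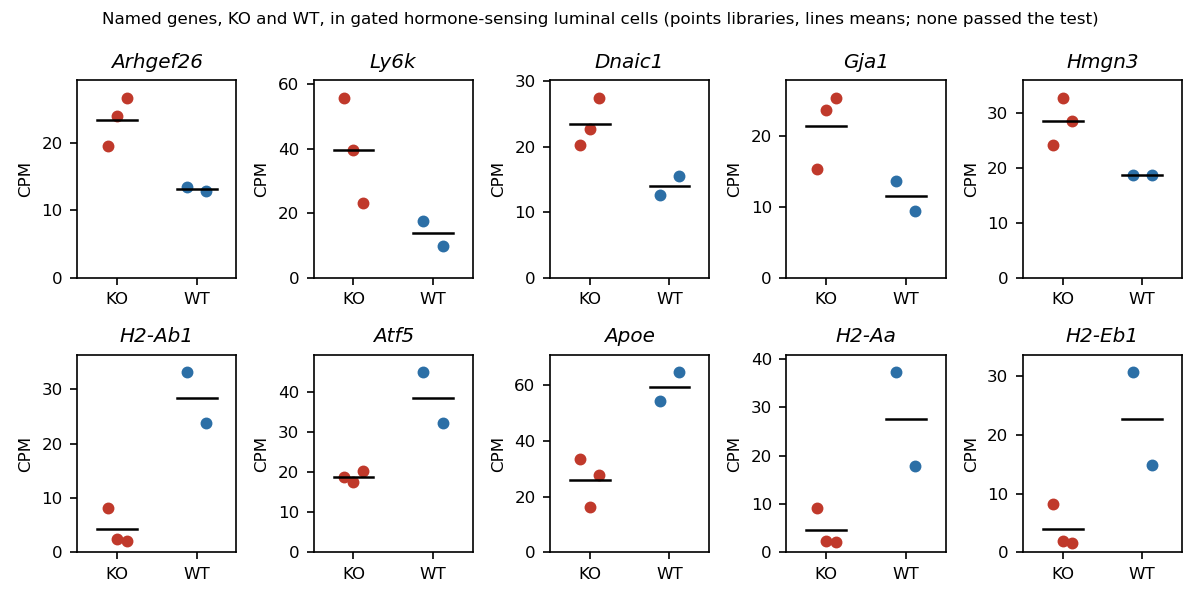
CPM of the 10 named genes in gated hormone-sensing luminal cells, KO left and WT right in each panel; points are libraries and lines are means (n = 3 and 2). The ranges do not overlap in any panel, and none of the genes passed edgeR's adjusted test without a replicate term in the fit.

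No gene of the hormone or Notch lists passed edgeR's test between genotypes without a replicate term. Of the 18 identity genes, 0 passed, 13 had a higher and 5 a lower fitted value in KO, and the median log2 difference was 0.14. Wnt4 had 296, 281 and 380 CPM in KO, against 271 and 234 CPM in WT (0.34 ± 0.21), with no overlap. Of 20 core Notch genes 0 passed, 10 were on each side, and the median was 0.03. Of 9 measured Notch targets 0 passed, with a median of -0.14. Hes1 had 534, 827 and 199 CPM in KO, against 483 and 875 CPM in WT, and Notch1 had 42.8, 80.8 and 42.0 CPM in KO, against 50.4 and 95.2 CPM in WT. For both genes the KO and WT ranges overlapped.

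Other lists gave values mostly on 1 side, with 0 calls by the same test. All 6 measured keratins outside the gate had lower fitted values in KO, as 6302 of all 12352 genes did. Of these 6, 2 had no overlap, where 6.28% of all genes were lower with no overlap, and their median was -0.70. All 15 measured MHC class I genes had lower fitted values in KO, 0 of them free of overlap, with a median of -0.44. Of 24 junction genes, 21 were lower (median -0.23), and of 15 YAP and TEAD genes, 13 were lower (median -0.14). Tead1, a DNA-binding partner of YAP, had 40.1, 35.3 and 42.9 CPM in KO, against 61.1 and 56.6 CPM in WT (-0.58 ± 0.18). Btc, which encodes the EGF receptor ligand betacellulin, had 16.8, 16.6 and 18.3 CPM in KO, against 42.2 and 23.8 CPM in WT (-0.94 ± 0.28). Of 17 heat shock genes, 14 had higher fitted values in KO, 4 of them with no overlap, where 5.28% of all genes were higher with no overlap, and their median was 0.40. Their sum was 7326, 8734 and 14975 CPM in KO, against 6899 and 7926 CPM in WT, so KO3 set much of the mean. In leukocytes of KO3 the same sum was 18333 CPM, against 6282 to 9082 CPM in those of the other libraries. The WNT list was less on 1 side. Of its 19 measured genes, 11 had higher and 8 lower fitted values in KO, with a median of 0.13. With no overlap, 5 were higher and 1 was lower.

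The difference between genotypes was not shown to differ between the luminal classes. In a fit of genotype by class with the library as a block, 0 of 12258 genes were past the edgeR adjusted p of 0.05 (0%), while 156 had an unadjusted p below 0.05. Without WT1 it called 18 and without WT2 it called 4. The 4, named only for that call, were H2-Q7, H2-Q6, Hba-a1 and Ubd.

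Cells with RNA of dividing cells followed the libraries. A gated cell was counted when at least 2 of 28 cell cycle genes had a UMI after thinning to 3000 UMIs. That held for 2.90%, 12.1% and 14.6% of KO1, KO2 and KO3 cells, against 4.29% and 14.9% of WT1 and WT2 cells. The mean was 9.88% ± 6.17 in KO and 9.59% ± 7.49 in WT (SD, n = 3 and 2; exact permutation p = 1). KO1 and WT1 were low, and the genotypes overlapped. The unthinned shares were 37.7%, 56.1% and 61.3%, against 46.4% and 67.6%. Mki67, a proliferation marker, had a UMI in 0.483%, 2.13% and 6.74% of thinned KO cells, against 1.02% and 3.82% of thinned WT cells, and in 1.92% to 10.98% of leukocytes. The difference in means changed sign without KO2, KO3 or WT1 (-0.839, -2.08 and -5.01 points), and these shares alone do not show that a cell was dividing.

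The widest differences within the gated cells were between libraries. By the range of log2 CPM among genes that reached 100 CPM, the 10 widest were Aoc1, Dmbt1, Tph1, Tmem86a, Lpl, Gpx3, Upk3a, Syn2, Stmn1 and 1 gene model without a name. They are described with no test. Tph1, the enzyme that starts serotonin synthesis outside the brain, lies at chr7:46644641-46672537. It had 137, 2.17 and 133 CPM in KO1, KO2 and KO3, against 81.1 and 0.585 CPM in WT1 and WT2. After thinning, 11.6%, 0.630% and 19.1% of KO cells had a Tph1 UMI, against 11.2% and 0.264% of WT cells. The leukocyte share was 0.493% to 2.04%, and the shares in KO2 and WT2 were not above that range. Whether the leukocyte UMIs were free RNA or made by those cells was not tested. Unthinned, the shares were 22.7%, 1.05% and 36.6%, against 22.8% and 0.646%.

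Gpx3, a secreted glutathione peroxidase, was found in nearly all cells of some libraries and in a minority of others. It was found in 93.7%, 22.8% and 86.5% of thinned KO1, KO2 and KO3 cells, against 98.8% and 27.8% of WT1 and WT2 cells, and in 2.04% to 13.1% of leukocytes. Its level was 2924, 102.8 and 1220 CPM in KO, against 4337 and 138 CPM in WT. In unthinned cells the shares were 96.8%, 54.9% and 96.8%, against 98.7% and 67.3%. In luminal progenitors of the same libraries Gpx3 was at 7.13 to 55.2 CPM.

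Aoc1, a diamine oxidase, had 208, 0.661 and 0 CPM in KO1, KO2 and KO3, against 227 and 0 CPM in WT1 and WT2. Tmem86a, a lysoplasmalogenase, had 248.9, 4.44 and 16.6 CPM in KO, against 296 and 6.69 CPM in WT. Syn2 had 287, 8.36 and 49.9 CPM in KO, against 234 and 9.74 CPM in WT. In these 3 genes KO1 and WT1 were high, and the other libraries were low. Lpl, lipoprotein lipase, had 154, 2.41 and 6.66 CPM in KO, against 55.8 and 4.35 CPM in WT. Dmbt1, a mucin-like scavenger receptor, had 597, 3.82 and 44.5 CPM in KO, against 373 and 90.0 CPM in WT.

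Upk3a and Stmn1 ran the other way. Upk3a, a uroplakin of the urothelium, had 56.9, 832 and 369 CPM in KO1, KO2 and KO3, against 26.2 and 1097 CPM in WT1 and WT2. It had a UMI in 4.35%, 34.4% and 20.2% of thinned KO cells, against 3.89% and 49.9% of WT cells. Stmn1, a microtubule-destabilising protein, had 3.83, 67.9 and 61.6 CPM in KO, against 5.91 and 103.03 CPM in WT. In luminal progenitors it had 25.6, 93.0 and 145 CPM in KO, against 27.0 and 87.6 CPM in WT, so KO1 and WT1 were the low libraries there too. KO3 stood with KO1 and WT1 for Tph1 and Gpx3 and with KO2 and WT2 for Stmn1.

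**Figure D5:**
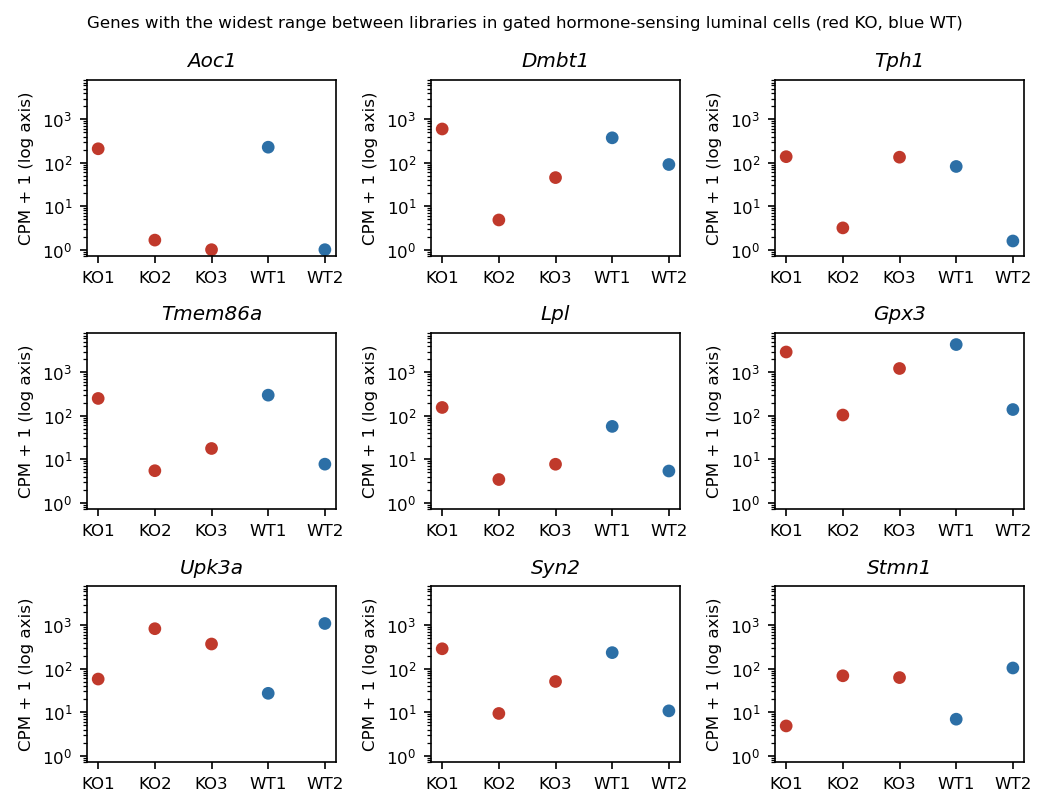
CPM + 1 on a log axis for the 9 named genes with the widest range between libraries in gated hormone-sensing luminal cells; red is KO and blue is WT. KO1 and WT1 are both high in every panel but Upk3a and Stmn1, where both are low, and KO2 and WT2 differ most in Dmbt1, with 3.82 and 90.0 CPM.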

How the data were processed

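Single-cell RNA of mouse mammary gland was measured in 3 Frmd3 KO and 2 WT libraries. The authors deposited raw UMI counts per gene and barcode, made with Cell Ranger 6.0.2 (6.1.2 for KO3), per the file headers, on mm10, per the submitters' processing notes; the annotation release is not given in the sources used here. Doublets were scored against simulated ones (scikit-learn 1.9.0) and removed only as an alternative. Cells are not replicates, so counts were summed per library and gate and tested with edgeR 4.0.16 (filterByExpr, TMM, robust quasi-likelihood) in R 4.3.3. Adjustment was by Benjamini-Hochberg over all genes, with a threshold of 0.05. An SE is the log2 difference divided by the square root of the F statistic. The alternatives were DESeq2 1.42.0, other scaling, filters and gates, and leaving out each library; the fits were tested on simulated data. CPM carry TMM factors of their own fit, except for the gate genes, sums over lists and Frmd3. Shares were compared by exact permutation, and intervals and floors cover counting error only. Whether p-values measure more than the spread between these 5 samples cannot be told from the labels.

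The members and gene lists were chosen with earlier results of these data known. Genes were named by a rule. For KO against WT it took, per direction, up to 10 genes past the threshold without overlap and with at least 20 CPM in the higher group, or else the 5 with the smallest unadjusted p. For hormone-sensing against progenitor cells it took the 12 largest changes per direction at 50 CPM or more, alike in every library. Between libraries it took the 10 widest ranges among genes reaching 100 CPM. List members may also be named. Leukocytes had at least 2 Ptprc UMIs and no Krt8 or Krt18 UMI. Thinning kept 207, 1270 and 89 gated cells in KO1, KO2 and KO3 and 489 and 759 in WT1 and WT2, the others being too shallow. Gene positions are from GENCODE mouse release 21 on mm10, matched by gene ID.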

Additional observations from a re-analysis of the deposited data

Results flagged for a closer look

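The difference between gated hormone-sensing and luminal progenitor cells in Atp6v1b1, a proton pump subunit, stood apart in KO3. Its log2 ratio of hormone-sensing over progenitor cells, at CPM + 1, was -6.23 in KO3, against -7.34 in KO1, -7.32 in KO2, -7.38 in WT1 and -7.23 in WT2. KO3 had 36 progenitor cells with 52 UMIs of the gene and 93 hormone-sensing cells with 3. Of 24 genes looked at in this way it was the 1 with a library far from the others, where chance alone would give about 1 in 20.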

How the results depend on the processing

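KO against WT called 0 genes under 11 of 13 alternatives. DESeq2 called 2, and the fit with the replicate number as a block called 104 of 13104 (0.794%), 49 higher and 55 lower in KO, 6 of the 10 named genes among them. List members it called include Jak2 (log2 0.49, edgeR adjusted p 0.0359), Fgg (-0.61), Gpx3 (-0.50), Tead1 (-0.65), H2-Q7 (-0.81), H2-Q6 (-0.97), B2m (-0.45), Hspa1a (0.76) and Hspa1b (0.67). The numbers 1 and 2 are shared by 2 pairs only, KO1 with WT1 and KO2 with WT2. KO3 shares its number with no WT library, so in the block fit it added nothing to the genotype difference. The calls of the block fit thus rest on those 2 pairs and not on all 5 libraries. Deviations from the group means correlated at 0.683 within the pair KO1 and WT1 and at 0.746 within KO2 and WT2. With 2 WT libraries the crossed pairs mirror these values, and the labels do not say that a number marks a shared day or litter. The genotype by class fit called 34 genes without the filter on low counts, and 0 to 18 when 1 library was left out. The KO minus WT share of kept cells was -0.107 points with scored doublets removed, -0.447 on cells thinned to 2000 UMIs and -0.271 at 3000 UMIs, and -8.30 to 4.95 points when 1 library was left out. Among luminal cells it was 0.771 points on cells thinned to 2000 UMIs and -19.9 to 15.3 with 1 library left out. The share with cell cycle RNA differed by -1.32 points without scored doublets, -5.27 unthinned and -0.936 at 2000 UMIs, and by -5.01 to 5.58 with 1 library left out. The causes were not tested. Named genes kept their direction under every alternative run, with H2-Ab1 (DESeq2 and block), Arhgef26, Ly6k, Atf5, H2-Aa and H2-Eb1 (block) then passing. Their size moved most in the MHC class II genes, which were -1.70 to -1.94 with scored doublets removed and -1.82 to -2.11 with a gate of 2 markers, while Apoe was -0.77 with scored doublets removed. Counts against progenitors ranged from 2711 to 3748 higher and from 2560 to 3262 lower. With 5 libraries, 93 gated cells in KO3 and 36 progenitors there limit every comparison.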

Other observations

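Fgb and Fgg, chains of the same plasma protein, were often counted in the same cells. In cells thinned to 3000 UMIs their Spearman correlation, a description with no test, was 0.41, 0.38 and 0.40 in KO1, KO2 and KO3, against 0.35 and 0.37 in WT1 and WT2. Fgb was found in 10.1%, 32.4% and 36.0% of KO cells, against 10.2% and 41.6% of WT cells, and in 0 to 4.08% of leukocytes. Ly6a and Ly6d, surface proteins of 1 family, correlated at 0.34, 0.41 and 0.48 in KO, against 0.26 and 0.17 in WT. Esr1 and Pgr were close to unrelated, at 0.03, 0.05 and 0.18 in KO, against 0.04 and 0.05 in WT, and sparse counts at this depth leave little to see. The cells of a pair share their library and thinned depth.

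Of 20 immediate early genes, 11 were lower and 2 higher in gated hormone-sensing than in luminal progenitor cells by edgeR's adjusted p, with a median log2 difference of -0.60. Of all genes tested, 26.1% were lower and 27% higher, and the lipid and FERM-domain counts that follow have the same background. Egr3, a transcription factor of early responses, was lower by 5.38 ± 0.21 on the log2 scale, and Jun was 0.57 ± 0.17 higher. Of 20 lipid synthesis genes, 9 were higher and 4 lower. Dgat2, the enzyme of the last step of triglyceride synthesis, was 4.06 ± 0.19 higher and the desaturase gene Scd1 was lower, at -2.35 ± 0.21. Of 15 FERM-domain genes related to Frmd3, 3 were higher and 8 lower. The linker protein gene Ezr was 1.08 ± 0.12 higher, and Frmd6 was lower, at -2.22 ± 0.15. None of the 20 lipid and 15 FERM-domain genes passed edgeR's adjusted test of KO against WT without a replicate term. By that test 0 of 12352 genes passed in all (115 at an unadjusted p under 0.05, 2 by DESeq2).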
